A study of Mus musculus with 2 samples.

Results

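Smooth muscle contractile genes and their regulators were examined for peaks called with an antibody against the zinc finger factor KLF4 in mouse atherosclerotic lesions. The set holds 10 of 21887 protein-coding genes: Acta2, Tagln, Myl9, Tpm1, Tpm2, Vcl, Myh11, Cnn1, Myocd and Srf, all 10 found by symbol in the reference gene table. The list is one of named genes, with no cutoff on a measured value. A peak was counted for a gene when its midpoint lay in the gene's span or within 10 kb of it. By this rule 19 of 2251 WT peaks and 1 of 1153 KO peaks belonged to the set.

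The data come from chromatin immunoprecipitation with sequencing (ChIP-seq) of frozen BCA tissue from lesions. Both groups were C57BL/6 mice fed a Western diet, with 1 library labelled WT and 1 labelled KO. The labels name neither the deleted gene nor the cells in which it was deleted, and give no age. The title of the series speaks of KLF4 in smooth muscle cells. The tissue was a mix that, per the labels, included smooth muscle, epithelial and macrophage cells. A peak can therefore come from any of these cells, and fewer cells of a type cannot be told apart from less binding per cell. Peak lists hold no cell type markers, so the labelled makeup of the tissue could not be checked from them. With 1 library a group there is no replicate error, and all differences are between these 2 lists.

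Contractile smooth muscle cells shorten by sliding actin filaments along smooth muscle myosin. The actin and its partners are anchored to the cell membrane at adhesion plaques, where vinculin sits. Serum response factor (SRF) binds the CArG box in the control regions of many contractile genes, and myocardin, which does not bind these sites by itself, joins it as a strong coactivator. When smooth muscle cells leave the contractile state in injured or diseased vessels, these genes fall. KLF4 is known as a factor that can repress them, and it recognises GC-rich and CACCC-type sequences.

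The peaks closest to a start site lay in Tpm1, Tpm2 and Vcl, and their promoters are shown for that reason. Promoter sequences and start sites are from RefSeq, build GRCm38.p6, whose chromosome positions are those of mm10. They cover 250 bases before to 50 bases after the listed start. Of the 10 genes, 7 had an entry, and Tagln, Myh11 and Myocd had none. Each sequence is written 5′ to 3′ along the gene's own strand. Capitals mark exact matches to 3 motifs on either strand, namely the CArG box, CACCC and GGGCGG. The CArG box was searched as CCWWWWWWGG, where W is A or T. The windows are Tpm1 on the minus strand at chr9:67049164-67049463, Tpm2 on the minus strand at chr4:43523505-43523804 and Vcl on the plus strand at chr14:20929148-20929447.
Tpm1: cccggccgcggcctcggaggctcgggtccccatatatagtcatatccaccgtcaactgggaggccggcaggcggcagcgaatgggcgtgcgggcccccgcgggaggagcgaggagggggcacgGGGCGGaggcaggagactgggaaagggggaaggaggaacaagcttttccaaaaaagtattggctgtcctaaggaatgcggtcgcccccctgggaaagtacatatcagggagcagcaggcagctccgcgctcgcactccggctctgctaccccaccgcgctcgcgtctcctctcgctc
Tpm2: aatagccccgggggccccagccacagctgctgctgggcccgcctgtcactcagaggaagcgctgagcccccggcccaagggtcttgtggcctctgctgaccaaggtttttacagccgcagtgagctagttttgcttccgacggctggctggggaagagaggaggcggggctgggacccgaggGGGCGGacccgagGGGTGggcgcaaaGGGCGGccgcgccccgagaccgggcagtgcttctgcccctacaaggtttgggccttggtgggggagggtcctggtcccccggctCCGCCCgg
Vcl: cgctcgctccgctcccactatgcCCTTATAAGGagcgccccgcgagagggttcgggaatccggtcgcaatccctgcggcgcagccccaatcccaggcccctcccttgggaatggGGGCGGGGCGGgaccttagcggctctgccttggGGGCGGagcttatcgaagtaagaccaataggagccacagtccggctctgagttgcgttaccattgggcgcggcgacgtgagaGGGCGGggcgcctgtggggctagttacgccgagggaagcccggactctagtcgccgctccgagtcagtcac

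The 3 promoters differed in which motifs they held. Positions are counted from the start site as 1, with negative numbers before it. In Tpm1 the single match was GGGCGG at -127 to -122. Tpm2 had GGGCGG at -68 to -63 and at -42 to -37 and, on the opposite strand, at 43 to 48. It also had CACCC on the opposite strand at -55 to -51. Vcl had the CArG box CCTTATAAGG at -227 to -218 and 4 matches to GGGCGG, of which those at -136 to -131 and -131 to -126 shared 1 base. GC content was 66.3% in Tpm1, 70.3% in Tpm2 and 66.7% in Vcl.

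Myl9 and Srf also had a CArG box in this window, without a WT peak close to the start. In Myl9 it was CCTAATAAGG at -161 to -152. Srf, which is known to regulate its own gene, had CCATATAAGG at -82 to -73 and CCATAAAAGG at -62 to -53. An exact CArG box match was thus found in 3 of 7 member promoters, against 1.6% of all 32851 promoter windows in the table. Near matches were not counted, such as ccctatatgg and ccttgtttgg in the Acta2 window. CACCC was found in 5 of 7 (Acta2, Myl9, Tpm2, Cnn1 and Srf), where 57.5% of all windows hold it. GGGCGG was found in 5 of 7 (Myl9, Tpm1, Tpm2, Vcl and Srf), where 35.7% of all windows hold it. These shares describe the letters only, and the matches are not shown to be bound.

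**Figure D1:**
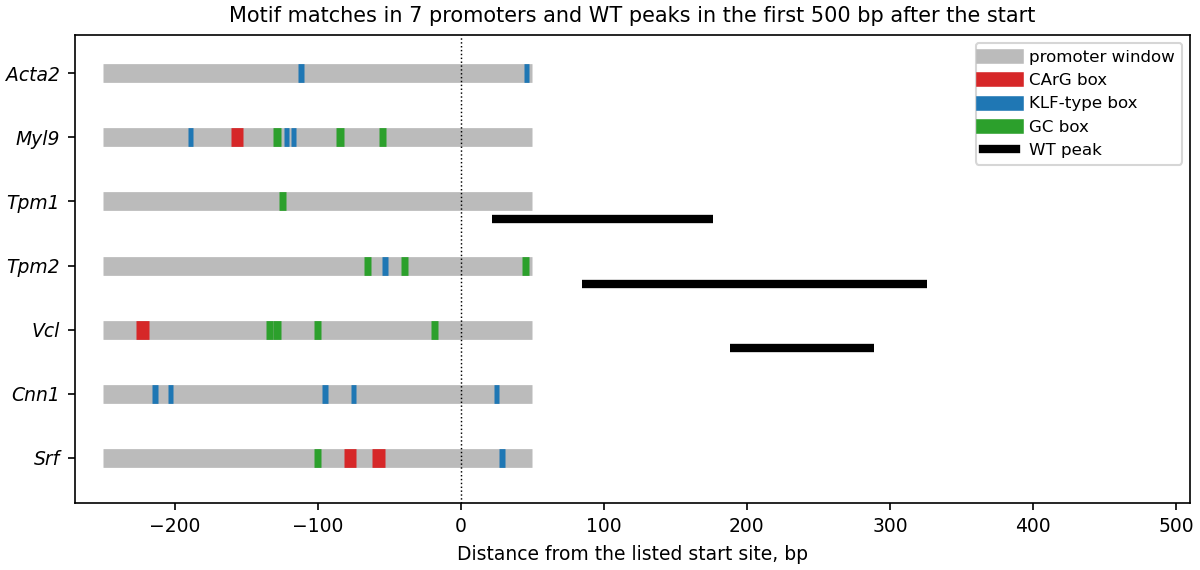
Motif matches in the promoter windows of 7 members (coloured blocks: CArG box in red, CACCC as the KLF-type box in blue, GGGCGG as the GC box in green) and WT peaks in the first 500 bp after the listed start (black bars), with distance from the start site in bp on the x axis. Peaks of Tpm1, Tpm2 and Vcl lie after the start, only that of Tpm1 reaches into the window, by 28 bases, and the other 4 genes have no peak here.

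A WT peak was called at 7 of the 10 genes, compared with 6.22% of all protein-coding genes (1362 of 21887). Among the 13708 protein-coding genes whose spans are between those of Myl9 (6.25 kb) and Vcl (104.29 kb), the shortest and longest members, the share was 6.51%. A KO peak was called at 1 of the 10 genes, against 2.34% of all protein-coding genes (513) and 1.78% of those in the same length range. The 7 with a WT peak were Acta2, Tagln, Myl9, Tpm1, Tpm2, Vcl and Srf, and the 1 with a KO peak was Myocd. Myh11 and Cnn1 had none in either list. No list-wide test was made, since the genes were picked with earlier results of these data known.

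Not 1 of the 19 was matched by an overlapping KO peak, against 7.54% of the 1433 WT peaks within 10 kb of any protein-coding gene. From the span of Srf the nearest KO peak was 786.3 kb away, and from that of Tpm1 it was 2853.2 kb away, with the other 5 genes between them. Over all protein-coding genes the distance to the nearest KO peak had a median of 983.3 kb and quartiles of 384.5 and 2047.8 kb. The distance from Srf was below that median, and those from the other genes with a WT peak were above it. Tpm2, at 2128.9 kb, and Tpm1 were beyond the upper quartile. This contrast was not tested. A missing peak means only that none passed the authors' threshold in that library, whose depth is unknown. In 0.585 Mb of merged windows the members had 32.5 WT peaks per Mb, while all protein-coding windows together had 1.11 per Mb. For KO peaks these densities were 1.71 and 0.38 per Mb, the first of which rests on 1 peak.

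All 19 WT peaks had their midpoint inside the span of the member itself, and none in the 10 kb to either side. Of the WT peaks within 10 kb of any protein-coding gene, 88.2% lay in a span. The nearest peak left out by the 10 kb limit was a WT peak 11.6 kb from Myl9 with a score of 63.9, followed by one 31.8 kb from Srf with a score of 62.5. None of the 19 had its midpoint in a pseudogene, whereas 10.7% of the 1433 WT peaks did. The KO peak lay in none either, against 1.02% of 490 KO peaks at protein-coding genes, and 0 of 10609 pseudogenes in the table is named after a member. Of the 19, 9 were also within 10 kb of another protein-coding gene. Exons and introns are not in the table, so peaks are placed by distance along the gene. Widths ran from 81 to 242 bp with a median of 153 bp, close to the 155 bp of WT peaks at protein-coding genes.

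**Figure D2:**
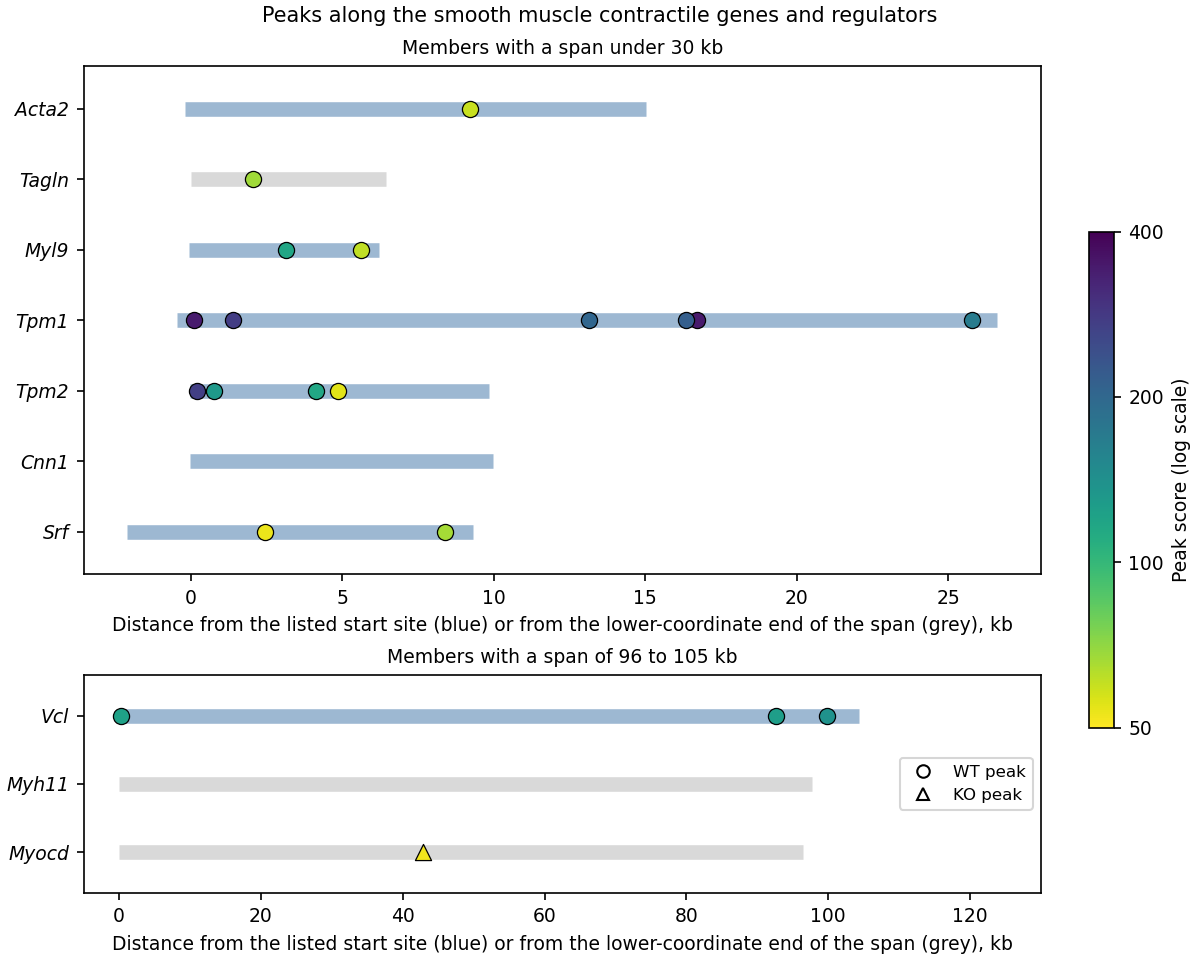
Peaks along the 10 genes, with distance in kb on the x axis from the listed start site (blue spans) or, where no start was listed, from the lower-coordinate end (grey spans); circles are WT peaks, the triangle is the KO peak, and colour gives the score on a log scale. Tpm1 holds 6 WT peaks spread over its length, Tpm2 holds 4 in the part nearer its start, and Myh11 and Cnn1 are empty.

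Scores rank peaks within a list and are on the scale of 10 times the negative log10 of the peak caller's p-value, so 50 stands for a p-value of 1e-05. The 19 WT peaks scored between 53.0 and 347.0, with a median of 125.7, beside a median of 88.3 for WT peaks at protein-coding genes and for the WT list as a whole. At or above that list median were 13 peaks, and 6 were below it. The 13 belonged to Tpm1, Tpm2, Vcl and Myl9. Acta2, Tagln and Srf had only peaks below it.

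The tropomyosins, coiled-coil proteins that lie along the actin filament and govern its access to myosin, held 10 of the 19 WT peaks. Tpm1 (gene 22003, chromosome 9, 67022590 to 67049672) had 6 WT peaks and 0 KO peaks. The peak at 67049037 to 67049191 began 22 bases after the listed start and scored 344.9. That at 67047720 to 67047947, 1.38 kb after the start, scored 276.0. They lay 0.4% and 5.2% of the way to the gene's end and scored above 92.1% and 89.2% of the WT list. In the middle of the gene, the peak at 67036024 to 67036131 scored 203.6, and a neighbouring pair at 67032789 to 67032954 and 67032463 to 67032543 scored 215.0 and 347.0. Only 245 bp separated that pair, and its second peak, the narrowest of the 19 at 81 bp, had the highest score of any member. The last peak, at 67023342 to 67023522, lay 0.84 kb from the end of the gene and scored 168.8. The lowest Tpm1 peak thus exceeded 78.9% of the WT list. By number of WT peaks, 11 protein-coding genes had more than Tpm1, and by highest score it stood at place 104 of the 1362 genes with a WT peak.

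Tpm2 (gene 22004, chromosome 4, 43513726 to 43523583) had 4 WT peaks and 0 KO peaks in 9.86 kb, which gave it the highest density of the 10 genes, 4.06 peaks per 10 kb of span. Its strongest peak, at 43523228 to 43523469, began 85 bases after the start, was the widest of the 19 at 242 bp, and scored 272.9. The next, at 43522728 to 43522880, lay 347 bp further along the gene and scored 131.0. Around the middle of the gene, peaks at 43519348 to 43519508 and 43518642 to 43518739 scored 115.6 and 54.8. From the start towards the middle of the gene the 4 scores therefore fell in order, and no peak lay in the remaining 4.96 kb. All 4 peaks were also within 10 kb of Car9, a carbonic anhydrase gene, and both peaks near the start were within 10 kb of Tln1, the gene of the adhesion protein talin 1. The peak at 43518642 to 43518739 was within 10 kb of Arhgef39 too. None lay in the span of any of these neighbours.

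Acta2 (gene 11475, chromosome 19, 34240336 to 34255585), which encodes smooth muscle alpha-actin, had 1 WT peak and 0 KO peaks. It lay at 34246073 to 34246234, 9.22 kb after the start and 61.3% of the way to the gene's end, and scored 59.6. Only 17.0% of WT peaks scored lower. No peak was called near its start or at its promoter window, in which CACCC occurs at -114 to -110 and at 44 to 48. Next to both tropomyosin genes, the main actin of the contractile filament thus had few and low-scoring peaks. The peak was also within 10 kb of Stambpl1, a deubiquitinase gene, without lying in it.

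Tagln (gene 21345, chromosome 9, 45929628 to 45936058), which encodes the actin-binding protein transgelin or SM22 alpha, had 1 WT peak, at 45931629 to 45931731, with a score of 67.5. This was the only member peak whose midpoint also fell in the span of another gene, Pcsk7, which encodes a proprotein convertase, so it cannot be assigned to 1 of the 2 genes. Sidt2 also lay within 10 kb of this peak. Cnn1 (gene 12797, chromosome 9, 22099221 to 22109221), which encodes the actin-binding protein calponin 1, had no peak in either list. Its closest WT peak lay at a distance of 703.8 kb, and its closest KO peak at 2007.9 kb. Its promoter window held 5 matches to CACCC, all on the opposite strand, more than any other listed promoter's. It held no exact match to the CArG box or GGGCGG.

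Of both myosin genes in the set, only the light chain gene had a peak. Myl9 (gene 98932, chromosome 2, 156775408 to 156781657) encodes the regulatory light chain whose phosphorylation switches on contraction. It had 2 WT peaks, at 156778530 to 156778691 with a score of 117.1 and at 156781033 to 156781129 with a score of 60.8. The first lay 3.15 kb after the start, about the middle of the gene, and the second 0.58 kb from its end. Its closest KO peak was 1475.8 kb off. Myh11 (gene 17880, chromosome 16, 14194527 to 14292188) encodes the smooth muscle myosin heavy chain, among the most specific markers of the smooth muscle lineage. It had no peak in either list although its span of 97.66 kb is the second longest of the 10. The closest WT peak lay 127.0 kb from its span, and the closest KO peak 173.9 kb.

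Vcl (gene 22330, chromosome 14, 20929383 to 21033676), which encodes vinculin, had 3 WT peaks and 0 KO peaks. They scored within a narrow range but lay at opposite ends of the gene. The peak at 20929586 to 20929687 began 188 bases after the start and scored 122.1. The others, at 21022007 to 21022137 and 21029177 to 21029313, lay 88.9% and 95.8% of the way to the end and scored 125.7 and 139.1. Between the first and the second was a stretch of 92319 bp without a peak. The peak at 21029177 to 21029313 was also within 10 kb of Ap3m1, without lying in it. Spans of similar length thus held 3 WT peaks in Vcl and none in Myh11 and Myocd.

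Both regulators differed in the list that held their peaks. Srf (gene 20807, chromosome 17, 46546838 to 46558267) had 2 WT peaks and 0 KO peaks. That at 46553659 to 46553810, 2.43 kb after the start, scored 53.0, the lowest of the 19. The other, at 46547696 to 46547865, lay 0.94 kb from the end of the gene and scored 66.2. Neither was close to the CArG boxes of its promoter. Both were also within 10 kb of Cul9, a cullin family gene.

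Myocd (gene 214384, chromosome 11, 65173608 to 65269989), which encodes myocardin, had no WT peak nearer than 2620.7 kb, and it had 1 KO peak inside its span, at 65216453 to 65216589. It was 137 bp wide and lay 42.91 kb from the lower-coordinate end. Its score of 52.2 was close to the KO list's lowest, 50.03, and only 7.2% of KO peaks scored lower. Scores of the 2 lists are not compared with each other.

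**Figure D3:**
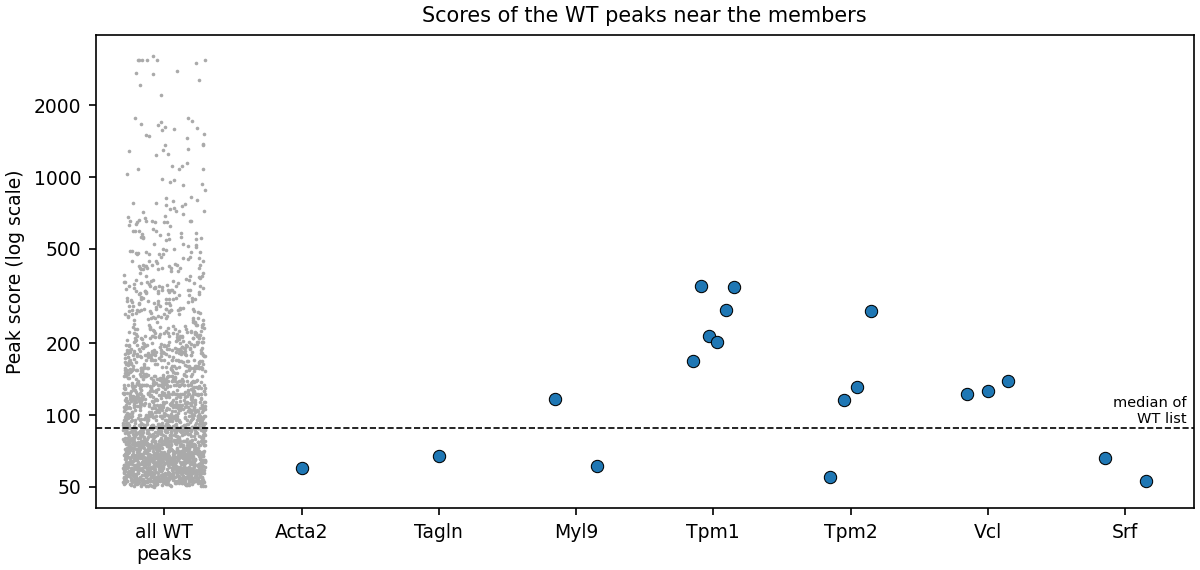
Scores of WT peaks on a log scale (y axis), for all 2251 WT peaks (grey, spread sideways to show density) and for the peaks of the 7 members that have one (blue, in genome order within a gene); the dashed line is the median of the WT list, 88.3. All peaks of Tpm1 and Vcl are above the line and those of Acta2, Tagln and Srf are below it.

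Most member peaks lay away from both ends of the gene, which was also so for WT peaks at protein-coding genes in general. The shares just after the start and in the last 1 kb were higher for members with a listed start, at 16.67% each. For the 6 genes with a WT peak and a listed start, 3 of 18 WT peaks had their midpoint in the first 500 bp after it, in Tpm1, Tpm2 and Vcl, against 5.73% of 1012 WT peaks at protein-coding genes with 1 listed start. In the 500 bp before it there were 0 of 18, against 0.198% of those 1012. In the last 1 kb of the span there were 3 of 18, in Tpm1, Myl9 and Srf, against 9.78%. The remaining 12 lay further inside the gene. Such small counts were not tested.

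Other genes of the same machinery had WT peaks at a smaller share. Of 20 other contractile and adhesion genes, 5 had a WT peak within 10 kb (25.0%), against 6.22% of all protein-coding genes. Only 3 of them had one in their own span. Members and lists were chosen with earlier results of these data known, and the contrast between them was not tested. Actn1, whose product alpha-actinin 1 crosslinks actin, had 6 with scores of 88.3 to 207.4. Flna, which encodes the actin crosslinker filamin A, had 3 with scores of 64.6 to 92.8. Lpp, an adhesion protein gene, had 1 with a score of 60.2 that also lay in the pseudogene Morf4l1-ps1. The peaks counted for Tln1 were both Tpm2 peaks near the start, and that counted for Aoc3 lay 8.66 kb away in Psme3. In KO, Synpo2, the gene of an actin-associated protein, had 1 peak with a score of 51.2. The other smooth muscle genes of that list, among them Actg2, Smtn, Des, Lmod1, Cald1 and Mylk, had no peak in either.

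Of 15 other regulators of the contractile programme, 0 had a peak in either list. These were the SRF coactivator genes Mrtfa and Mrtfb, both listed under older symbols, with Klf4, Klf5, Elk1, Gata6, Foxo4, Hey2, Notch3, Rbpj, Prrx1, Tead1, Smad3, Tcf21 and Sp1. Over all protein-coding genes, the shares were 6.22% for WT and 2.34% for KO.

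Non-muscle actin and myosin genes, which most cells of the lesion use for shape and movement, had WT peaks at 9 of 10 genes and KO peaks at 0 of 10. Peaks numbered 9 in Myh9, 4 each in Actb and Actn4, and 3 in Actg1, and the highest score was 632.2, in Myl6. Of the non-muscle genes 4 had 3 or more WT peaks, as had 3 of the contractile members (Tpm1, Tpm2 and Vcl), against 0.786% of all protein-coding genes. Among the light chains, the highest score was 117.1 in Myl9, a regulatory chain gene, and 632.2 in Myl6, the essential light chain gene. These are different kinds of chain, so Myl6 is not the non-muscle counterpart of Myl9. The non-muscle regulatory light chain genes, closest in role to Myl9, scored lower than it. Myl12a had 1 peak, with a score of 95.0, and Myl12b had 1 in its own span with a score of 95.5 and was also within 10 kb of the Myl12a peak. For the actins the highest score was 59.6 in Acta2, 424.4 in Actb and 241.9 in Actg1. For the heavy chains there was no peak in Myh11, while Myh9 reached 413.0 and Myh10 77.7. In tropomyosins the highest scores were 347.0 in Tpm1 and 272.9 in Tpm2. Tpm4 had 1 peak in its own span with a score of 58.9 and 1 that lay 8.26 kb away in Rab8a with a score of 67.9, and Tpm3 had none. The order of smooth muscle and non-muscle forms thus differed between these protein families. Tpm1 and Tpm2 also make forms used outside muscle, so they do not belong to smooth muscle alone. None of these contrasts was tested, since a score ranks peaks of 1 library.

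**Figure D4:**
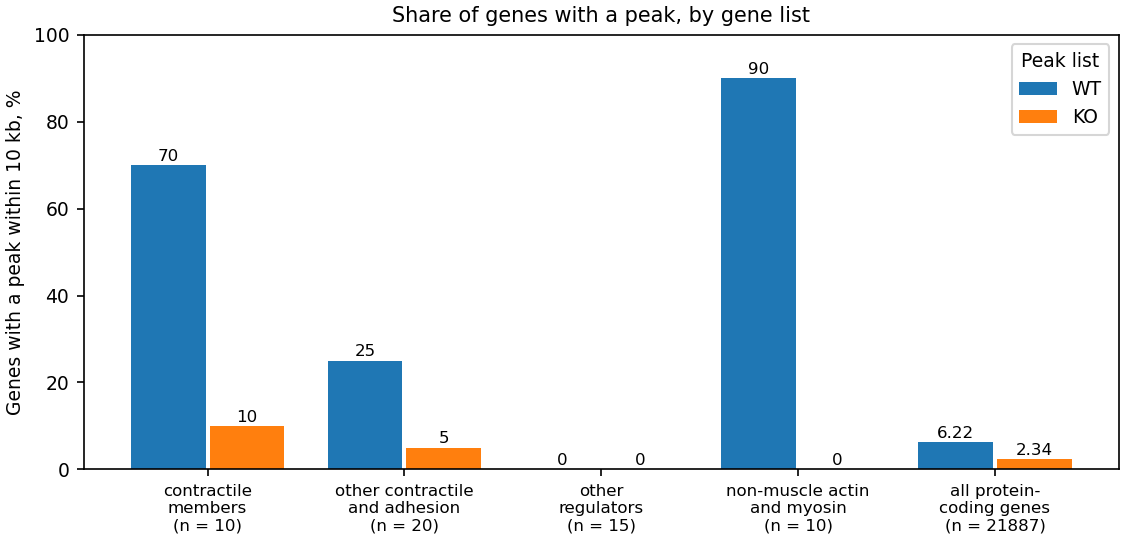
Share of genes with a peak within 10 kb (y axis, %) in 4 lists of genes and in all 21887 protein-coding genes, for the WT list (blue bars) and the KO list (orange bars). WT shares are 70.0% for the contractile members and 90.0% for non-muscle actin and myosin genes, beside 6.22% of all protein-coding genes. The KO share of the contractile members, 1 of 10, rests on the single peak in Myocd. Its score of 52.2 is close to the KO list's lowest, 50.03, so the order of KO shares has no weight.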

How the data were processed

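ChIP-seq peak lists of 1 WT and 1 KO library were used. Reads were handled by the authors with Bowtie 1.0 and SAMtools 0.1.18 on build mm10, per the submitters' processing notes. Peaks carry names in the style of MACS in the deposited files. The caller's version, control, settings, pooling and handling of repeats were not given in the sources used here. Each peak's score is the authors' deposited score, read as 10 times the negative log10 of its p-value. The lists hold no read counts, so depth is unknown and no interval or floor is given.

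Gene spans came from the NCBI RefSeq table of GRCm38.p6, and start sites and promoters from the RefSeq promoter table of that build. Peaks were assigned by midpoint within 10 kb of a span, and counted as shared from an overlap of 1 bp, with starts converted to 1-based. Unplaced sequences (73 WT and 53 KO peaks) were left out of gene counts. Peak sequences and exons were not used here. All 10 members were named, with genes whose span held their peaks and every gene with a peak in 3 comparison lists, of which 1 gene is not reported here. Neighbours within 10 kb were added after seeing the data. Members and lists were chosen with earlier results of these data known. No test was made. Assignment and overlap were tested on simulated peaks. Alternatives covered the window, midpoint rule, score limit, list size, pseudogenes, nearest gene and overlap rule. Python 3.11.15, numpy 2.4.6, pandas 2.3.3 and matplotlib 3.10.9 were used.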

Additional observations from a re-analysis of the deposited data

How the results depend on the processing

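The count of 7 members with a WT peak was the same with the span alone, with 2.5 kb or 50 kb around it, with any base of the peak in the window, without peaks in pseudogene spans and with the nearest gene only. It was 4 under a score limit at each list's median and also 4 with the WT list reduced to its 1153 top-scoring peaks, which left out Acta2, Tagln and Srf. The number of WT peaks was 19 in these settings, except 21 with 50 kb and 13 under each of the score limit and the reduced list. The KO peak in Myocd stayed under all settings except the score limit, which left 0 KO peaks and 0 members with one. No WT peak of a member was shared with KO under any setting, including a KO peak within 1 kb. No paired analysis was possible because each group has 1 library and no test was made. Depth is not recorded in the lists, and its part in the difference between the lists was not tested.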
